A study of Mus musculus with 8 samples.

Results

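Activated neutrophils of lung adenocarcinomas, marked by Ccrl2, Il1a and Il23a transcripts, were described in single-cell RNA libraries from 8 mouse tumours. They are 827 cells of 2119 cells in a neutrophil gate, and of 24838 cells kept for quality. Kept cells had 500 or more UMIs (unique molecular identifiers, 1 per captured transcript), 250 or more genes and no more than 15% of UMIs from mitochondrial genes. The gate asked for UMIs of at least 3 of S100a8, S100a9, G0s2, Csf3r and Cxcr2, none of Cd3e, Cd79a and Ncr1, at most 2 of C1qa, C1qb and C1qc together, and fewer than 4 of the 5 alveolar macrophage genes Ear2, Fabp1, Krt79, Plet1 and Car4. A gate cell was called activated when Ccrl2, Il23a and Il1a together had at least 2 UMIs and at least as many as Retnlg and Mmp9 together. The other 1292 gate cells are called other neutrophils here: 1126 of them were mature by the mirrored rule (Retnlg and Mmp9 in excess) and 166 met neither rule. Because measured transcripts chose the cells, levels in activated against other neutrophils are given as a description and without a test.

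The tumours came from KPC mice, a KP lung adenocarcinoma model whose alleles the labels do not spell out, and were taken 16 weeks after tumour initiation. In every mouse CRISPR activation was directed to tumour cells from initiation, with dead guide RNAs against Malat1, a nuclear long noncoding RNA (labelled mA1, 4 tumours), or against Tomato as the control (labelled Con, 4 tumours), so neutrophils were not the cells targeted. Only the largest tumours were dissected, and dead cells were removed before cells were tagged with 1 of 2 hashtag antibodies that bind CD45 and MHC class I. Each group has 2 libraries, and cells with exactly 1 of its 2 hashtags were assigned to the tumour of that library and hashtag. The labels do not say whether both hashtags of a library come from separate animals, so p-values measure the spread between these samples. Tumours are named by label, library and hashtag, so that Con 1-2 is hashtag 2 of Con library 1. Of the activated cells 780 carried exactly 1 hashtag, 26 to 224 per tumour, with 58910 to 545603 UMIs per tumour.

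Neutrophils are short-lived granulocytes that leave the bone marrow with granule proteins and calprotectin (the S100a8 and S100a9 dimer) already made. In inflamed tissue and in tumours they switch on cytokine and chemokine genes that depend on NF-kB, such as the interleukin-1 genes and the Cxcr2 ligand Cxcl2, which draws in further neutrophils. Ccrl2 is an atypical chemokine receptor that binds chemerin without classical signalling and is induced by inflammatory stimuli, Il1a encodes the alarmin cytokine interleukin-1 alpha, and Il23a encodes the p19 subunit of interleukin-23. Retnlg and Mmp9, by contrast, belong to the mature neutrophil of blood.

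The gate required several neutrophil genes, so their detection is fixed by it: S100a8 was detected in 97.7% of the activated cells and Csf3r, the receptor for granulocyte colony-stimulating factor, in 84.4%. Of neutrophil genes outside the gate, the decoy receptor gene Il1r2 was detected in 87.7% and the lectin gene Clec4d in 72.6%, against 2.44% and 1.35% of B cells, which should lack them. Ly6g, the classical surface marker, was detected in only 1.69%. Mpo and Elane of the earliest granules were at 0 in 827 cells, which allows a share of cells with a UMI of up to 0.363%. Markers of basophils and mast cells were at 0 for 6 of 6 genes, those of eosinophils for 4 of 5, and the summed T cell, NK cell and dendritic cell lists did not exceed 90.2, 54.0 and 10.6 CPM in any tumour (CPM, a gene's UMIs scaled to a common total per cell). The B and plasma cell list was not as low, at 113 to 807 CPM in activated and 315 to 799 CPM in other neutrophils. Epithelial and tumour cell genes summed to 78.2 to 586 CPM in activated and 11.7 to 729 CPM in other neutrophils. The source of this RNA was not tested. Macrophage and monocyte genes summed to 219 to 426 CPM in activated and 222 to 447 CPM in other neutrophils, with C1qa, C1qb and C1qc limited by the gate. Of these genes Adgre1, the F4/80 antigen, was at 84.8 against 39.0 CPM and higher in activated cells of 8 of 8 tumours. The alveolar macrophage list summed to 251 to 909 CPM in activated and 202 to 909 CPM in other neutrophils, and its gene Car4 was at 168 against 46.5 CPM, higher in 7 of 8.

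Some activated barcodes held more RNA than a neutrophil usually gives. Median depth was 1809 UMIs and 724 genes, against 1569 UMIs and 646 genes in other neutrophils, but 34 activated cells exceeded 6000 UMIs and 52 held at least 5 UMIs of Csf1r, Cd74, Apoe and H2-Aa together. The deepest, in Con 1-1, held 87581 UMIs with 943 UMIs of epithelial genes, and made up 30.7% of that tumour's activated UMIs. The tests between mA1 and Con tumours rest on summed UMIs and were therefore repeated on the 759 cells (91.8%) with at most 6000 UMIs and at most 4 of those macrophage UMIs. No activated barcode was shared between libraries, although each pair of libraries shared 89 to 269 barcodes among all cells. Con library 2 stood apart in sex-linked genes: its activated cells had Xist at 343 and 447 CPM and Ddx3y at 0, whereas in the other 6 tumours Xist was at or below 3.62 CPM and Ddx3y between 178 and 365 CPM.

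Ccrl2 carried the definition. It was detected in 98.3% of the activated cells, Il1a in 49.1% and Il23a in 24.4%. In 358 cells (43.3%) Ccrl2 was the only one of the 3 genes with a UMI, 257 cells had Ccrl2 with Il1a, 62 had Ccrl2 with Il23a, and 136 (16.4%) had all 3. Only 10 cells entered by Il1a alone and 1 by Il23a alone. Il12b, whose product pairs with p19 to form interleukin-23, had no UMI in any of the 827 cells.

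The level of Ccrl2, as the mean of per-cell CPM, was 5258, 5057, 4065 and 4080 in tumours Con 1-1, Con 1-2, Con 2-1 and Con 2-2. In mA1 1-1, mA1 1-2, mA1 2-1 and mA1 2-2 it was 4435, 5253, 4051 and 4287. The highest tumour was thus 1.30 times the lowest, with a coefficient of variation of 11.8% over 8 tumours, and the groups overlapped. Il1a read 1640, 1367, 1062 and 1054 CPM in the Con tumours in the same order, and 601, 1576, 970 and 1284 CPM in the mA1 tumours. Il1a varied more (28.7%), with mA1 1-1 lowest, and again the groups overlapped. Il23a was the most variable of the 3, at 109, 468, 214 and 479 CPM in the Con tumours and 290, 826, 528 and 650 CPM in the mA1 tumours, a coefficient of variation of 52.7% and a 7.56-fold range. Tumour mA1 1-2 was the highest in Il23a and Con 1-1 the lowest.

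Other neutrophils held 840 ± 214 CPM of Ccrl2, 50.9 ± 28.7 of Il1a and 23.1 ± 15.1 of Il23a (SD, n = 8). Detection was also read at a fixed depth of 1000 UMIs per cell, in activated neutrophils, mature neutrophils, B cells and alveolar macrophage marker cells; these 3 genes chose the activated cells, so their shares there are a description. Ccrl2 was detected in 92.5%, 43.5%, 1.20% and 4.73% of these cells. For Il1a the shares were 42.6%, 4.12%, 0.523% and 3.66%, and for Il23a 19.0%, 2.06%, 0.0523% and 0.160%. The share of mature neutrophils with Il1a was thus close to that of the macrophage marker cells, although the mirrored rule limits these 3 genes in mature cells. The thinning left out 76, 106, 17 and 5 cells below 1000 UMIs. Median depths before thinning were 1809, 1600, 2540 and 15806 UMIs, and the unthinned shares with Ccrl2 were 98.3%, 53.5%, 3.72% and 31.5%.

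The proximal promoters of 3 of the marker genes are printed here because their promoters differ in which inflammatory motif they hold. Ccrl2 and Il1a are genes of the rule, and Cxcl2 is a marker that the rule did not use. They are the 120 bases before the first annotated start site, taken from RefSeq on GRCm38.p6, 5′ to 3′ on the gene's own strand. Capitals mark matches, on either strand, to the NF-kB letters (GGG, any 5 bases, CC) or to the AP-1 letters TGACTCA and TGAGTCA.
Cxcl2, chr5:90903779-90903898, plus strand: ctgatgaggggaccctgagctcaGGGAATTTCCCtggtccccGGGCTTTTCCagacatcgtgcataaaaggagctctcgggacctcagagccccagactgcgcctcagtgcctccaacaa
Ccrl2, chr9:111057519-111057638, minus strand: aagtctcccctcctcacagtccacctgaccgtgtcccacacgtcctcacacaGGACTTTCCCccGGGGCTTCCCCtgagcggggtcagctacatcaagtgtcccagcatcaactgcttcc
Il1a, chr2:129309973-129310092, minus strand: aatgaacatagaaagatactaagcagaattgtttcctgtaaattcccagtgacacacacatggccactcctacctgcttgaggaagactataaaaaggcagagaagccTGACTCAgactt

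Cxcl2 holds 3 NF-kB matches, beginning 97, 96 and 78 bases before the start site, of which the first 2 overlap. Ccrl2 holds 3 as well before the first of its 3 annotated start sites, at 68, 56 and 55 bases, the last 2 overlapping. The windows of its other start sites hold 0 NF-kB matches. Il1a holds none in its window, and 1 AP-1 match 12 bases before the start site. In the window from 250 bases before to 50 bases after the start, the promoter of G0s2 held 1 NF-kB match, beginning 31 bases after the start, and that of Il1b neither motif. These windows were available for 5 of the 6 marker genes. Of 32851 mouse promoter windows of the same length, 50.8% held the NF-kB letters and 5.20% an AP-1 match, so the NF-kB letters alone set no gene apart, and a match is a description of the letters.

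Of the markers that the activated rule did not use, Cxcl2 separated the states and Il1b and G0s2 hardly did. Cxcl2 stood at 26824, 28178, 40172 and 33834 CPM in activated cells of the Con tumours and at 31239, 32668, 28528 and 31616 CPM in the mA1 tumours. It was higher in activated than in other neutrophils of 8 of 8 tumours, 31632 ± 4204 against 16023 ± 3654 CPM, a log2 ratio of 1.00 ± 0.14 (SD, n = 8). Tumour Con 2-1 was the highest in both states, at 40172 and 23302 CPM. Il1b, the secreted interleukin-1 beta, was high in both: 28005 ± 4733 CPM in activated and 22812 ± 3538 CPM in other neutrophils, higher in 7 of 8 tumours by a log2 ratio of 0.29 ± 0.15. G0s2, which inhibits lipolysis and was also a gate gene, was at 4060 ± 816 against 3847 ± 953 CPM and higher in only 5 of 8 tumours (0.10 ± 0.29).

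**Figure D1:**
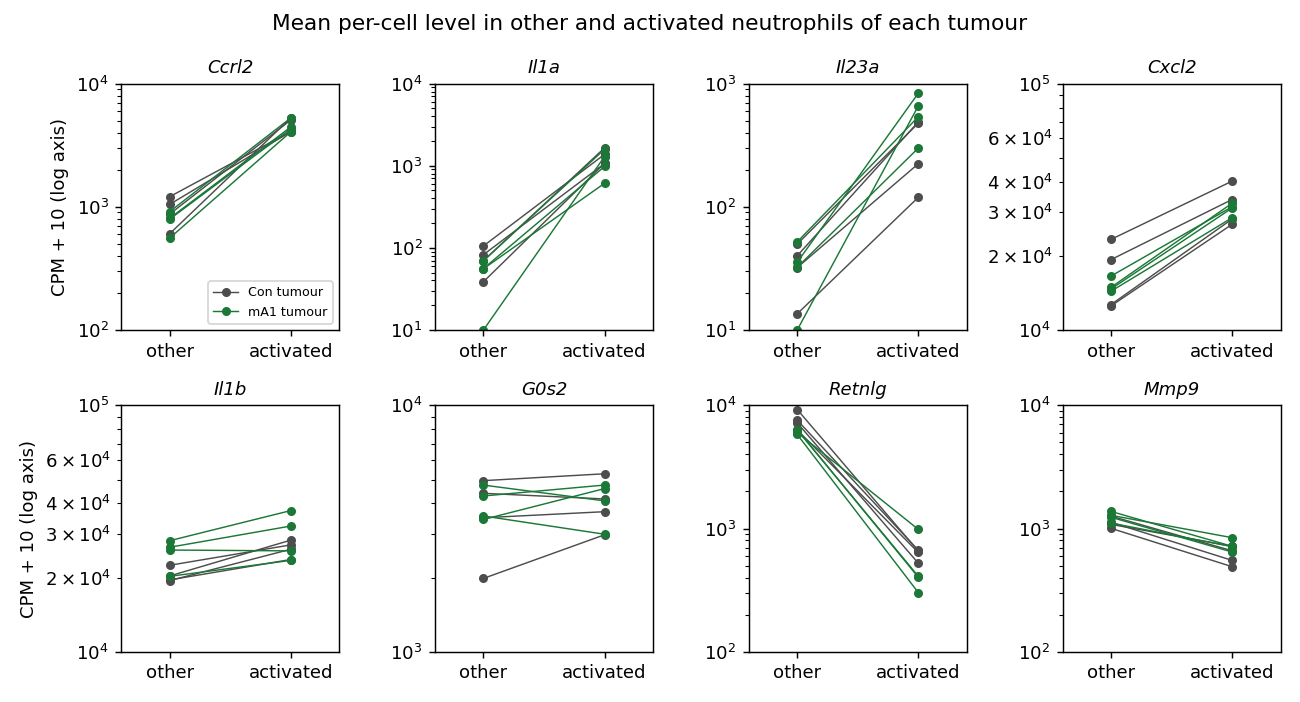
Mean per-cell CPM plus 10 (log axis) of the 6 marker genes and of Retnlg and Mmp9 in other and activated neutrophils, with 1 line per tumour (4 Con in grey, 4 mA1 in green). Lines for Ccrl2, Il1a and Il23a climb steeply because those genes chose the cells, Cxcl2 is higher in activated cells of 8 of 8 tumours, Il1b is nearly level and G0s2 lines cross.

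The rule also fixed the direction of Retnlg and Mmp9, and did so unequally. Retnlg, a resistin-like protein of mature neutrophils, was at 562 ± 214 CPM in activated and 6847 ± 1134 CPM in other neutrophils, whereas Mmp9, gelatinase B, was at 657 ± 109 and 1173 ± 124 CPM. Thus 57.0% of activated cells still carried Mmp9, and 31.0% carried Retnlg. The gate genes S100a8 and S100a9 were lower in activated cells of 8 of 8 tumours, with log2 ratios of -0.75 ± 0.31 and -0.99 ± 0.34, and so was Csf3r (-0.53 ± 0.23).

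Selection on few UMIs inflates the genes selected on, so the state was also called from a random 0.5 of each cell's UMIs and the levels read from the rest. That call found 726 activated cells, among them 679 of the 827. In the UMIs not used for the call Ccrl2 was at 4473 ± 739 against 1092 ± 141 CPM, Il1a at 1304 ± 419 against 79.1 ± 30.0 CPM and Il23a at 517 ± 269 against 38.9 ± 19.8 CPM (SD, n = 8). Their log2 ratios were 2.02, 3.87 and 3.39, against 2.46, 4.48 and 3.75 with all UMIs. Cxcl2 kept a ratio of 0.98.

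Along the UMI count of the 3 rule genes, Cxcl2 changed by degrees. In gate cells with 0, 1, 2, 3 to 4, 5 to 9 and 10 or more of these UMIs, Cxcl2 was at 12664, 14736, 17952, 20871, 26116 and 35090 CPM. S100a9 went the other way, from 59884 CPM in the 647 cells with 0 to 33882 CPM in the 466 cells with 10 or more. Median depth was 1436 UMIs in the first of these bins and 2330 in the last, so depth moved with the count, and its part was not tested. Retnlg was at 6478 CPM in the first bin. It lay between 3451 and 4552 CPM over the bins from 1 to 9 UMIs and was at 1271 CPM in the last.

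**Figure D2:**
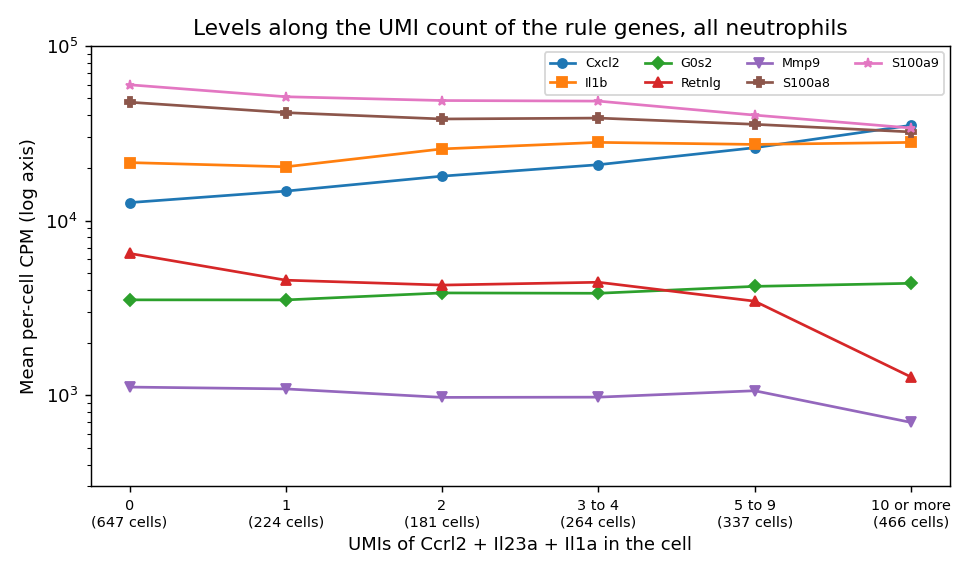
Mean per-cell CPM (log axis) of 7 genes in all 2119 gate cells, binned by the summed UMIs of Ccrl2, Il23a and Il1a, with the number of cells under each bin. Cxcl2 goes from 12664 to 35090 CPM, S100a9 from 59884 to 33882 CPM, and Il1b and G0s2 differ little between the last 4 bins.

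At the limit of the rule the cells resembled their neighbours in some genes and not in others. The 65 activated cells with exactly 2 rule-gene UMIs had 22343 CPM of Cxcl2 and 29864 of Il1b. The 42 cells left out with 1 such UMI, and no more of Retnlg and Mmp9, had 14027 and 16448 CPM. Those 42 cells were also lower in gate genes, with G0s2 at 1807 and S100a8 at 17405 CPM. In the 65 cells these were at 4216 and 22948 CPM. The 52 cells left out because Retnlg and Mmp9 exceeded the 3 genes by 1 UMI had 19099 CPM of Cxcl2 and 27145 CPM of Il1b, and the 50 cells at equality, which were let in, had 28318 and 31599 CPM.

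Beyond the rule genes, 2476 genes reached 50 CPM in either state. Of these 305 (12.3%) were higher and 226 (9.13%) lower in activated cells of all 8 tumours, with a median log2 ratio of 0.04 over all of them. All ratios are of CPM plus 10, which understates differences of low genes. The 20 highest included the chemokine genes Ccl3 and Cxcl1, the cytokine gene Tnf, the lectin receptor gene Clec4n, the survival genes Bcl2a1a, Bcl2a1b and Bcl2a1d, the adhesion gene Icam1, the phosphatase gene Dusp2 and the growth factor gene Csf1.

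Ccl3, which attracts monocytes and lymphocytes, was at 3288, 2415, 4578 and 2095 CPM in activated cells of the Con tumours and at 1210, 2908, 2843 and 1921 CPM in the mA1 tumours. Other neutrophils had 352 ± 238 CPM, a log2 ratio of 3.00 ± 0.52 (SD, n = 8). Every activated value lay above every value of the other neutrophils, whose highest was 885 CPM. Its neighbour gene Ccl4 was not set apart in the same way: 1699 ± 1182 against 1251 ± 426 CPM, higher in 6 of 8 tumours. Tnf was at 607, 614, 933 and 394 CPM in the Con tumours and 343, 877, 858 and 677 CPM in the mA1 tumours, against 78.3 ± 32.2 CPM in other neutrophils (2.93 ± 0.65). At 1000 UMIs Tnf was detected in 30.1% of activated and 5.59% of mature neutrophils, in 0.733% of B cells and in 2.86% of alveolar macrophage marker cells. Ccl3 was detected in 46.1%, 13.7%, 1.36% and 12.4%, so that its share in mature neutrophils was close to that in the macrophage marker cells.

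**Figure D3:**
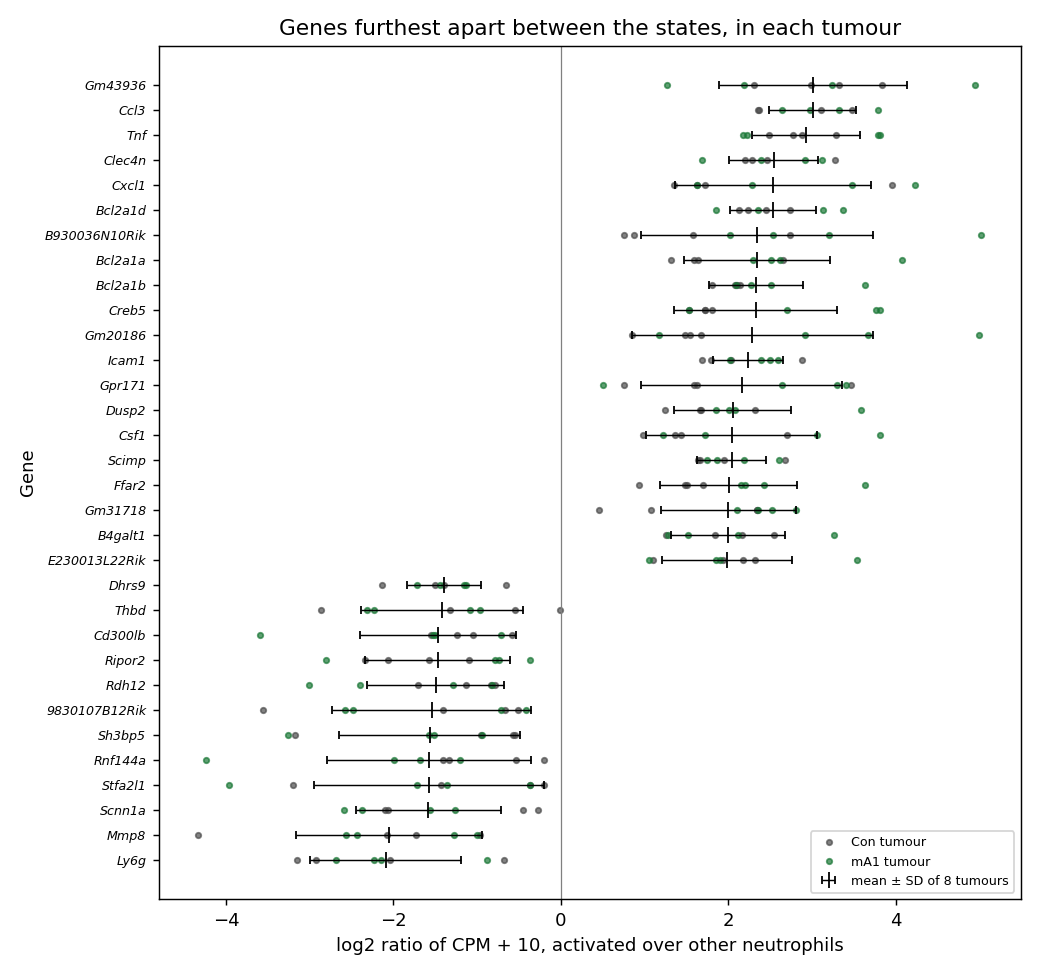
Log2 ratio of CPM plus 10 between activated and other neutrophils for the 20 genes furthest above and the 12 furthest below 0, with 1 point per tumour and the mean ± SD of 8 tumours. Points of 8 of 8 tumours lie on the same side of 0 because the genes were chosen that way, and Con and mA1 points intermix.

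Bcl2a1a, Bcl2a1b and Bcl2a1d are near-identical copies whose reads can be split between them, and their ratios (2.34, 2.33 and 2.53) are uncertain singly.

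Among interleukin-1 genes, only Il1rn of the 10 measured outside the rule was higher in 8 of 8 tumours. Il1rn, the secreted receptor antagonist, was at 1760 ± 446 against 475 ± 139 CPM (log2 ratio 1.88 ± 0.23). The decoy receptor gene Il1r2 (2284 against 2280 CPM) hardly differed, and the inflammasome sensor gene Nlrp3 (1791 against 1353 CPM) was higher in 7 of 8. The median of the list was 0.01. Of 9 neutrophil chemokine and receptor genes, Cxcl1, Cxcl2 and Ptafr, the receptor for platelet-activating factor, were higher in 8 of 8. Cxcl3 was at 212 ± 339 CPM, with Con 2-1 at 1030 and mA1 2-2 at 0. Ccl6 was lower in 8 of 8 tumours, at 1660 against 3150 CPM.

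Of the 18 measured genes of the TNF and NF-kB list 12 were higher and 0 lower in 8 of 8 tumours, with a median log2 ratio of 0.92. Beside this count, and those of the other lists, stand the 12.3% higher and 9.13% lower of all measured genes and their median of 0.04; the lists were not tested against other genes. The inhibitor gene Nfkbia was at 5314 ± 924 against 1996 ± 482 CPM (1.43 ± 0.28), and Tnfaip3, the A20 brake on NF-kB, at 902 ± 216 against 472 ± 45.1 CPM (0.89 ± 0.30). Icam1, which binds leukocyte integrins, was at 527 ± 112 against 105 ± 29.6 CPM, and Sod2, the mitochondrial superoxide dismutase, at 289 ± 43.4 against 96.6 ± 38.0 CPM. The receptor gene Tnfrsf1b (-0.08 ± 0.24) and Bcl3 (-0.23 ± 0.44) did not share this. Of 11 survival and death genes 6 were higher in 8 of 8 (median 0.52), among them anti-apoptotic Bcl2l1 (1.24 ± 0.58) and also pro-apoptotic Bax (1.14 ± 0.86), whereas Mcl1 was level (0.02 ± 0.18).

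Of 19 measured genes known from tumour neutrophils 11 were higher and 2 lower in 8 of 8 tumours (median 0.76). Siglecf, the lectin that marks long-lived tumour neutrophils in mice, was at 139 ± 46.8 against 40.9 ± 14.1 CPM. It was detected in 12.1% of activated and 3.33% of mature neutrophils at 1000 UMIs, against 0.628% of B cells and 10.5% of alveolar macrophage marker cells, and the part of RNA from those macrophages was not tested. Ltc4s, of leukotriene C4 synthesis, had a ratio of 1.67 ± 1.10, Clec5a 1.45 ± 0.72 and Olr1, the LOX-1 receptor, 1.21 ± 0.72. Cd274, encoding PD-L1, was at 118 ± 51.3 against 63.5 ± 33.0 CPM and higher in 7 of 8. Lgals3 (-0.63 ± 0.33) and Pla2g7 (-0.56 ± 0.29) were lower in 8 of 8, Arg2 was lower in 6 of 8, and Nos2 was at 0.

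Of 16 hypoxia and glycolysis genes 4 were higher and 3 lower in 8 of 8 tumours. Hexokinase 2 (Hk2) was at 264 ± 153 against 72.4 ± 27.9 CPM and the oxygen sensor gene Egln3 at 158 ± 72.6 against 42.2 ± 25.6 CPM, while the glucose transporter gene Slc2a3 was lower, at 134 ± 34.3 against 320 ± 63.9 CPM. Vegfa, the vascular growth factor gene, was at 295 ± 79.3 against 138 ± 47.0 CPM, higher in 7 of 8. Gapdh did not differ (0.00 ± 0.37).

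Of 16 mature and granule genes outside the rule, 9 were lower and 1 higher in 8 of 8 tumours, with a median of -1.01. Ly6g was at 13.6 ± 13.4 against 82.0 ± 39.6 CPM, the collagenase gene Mmp8 at 60.4 ± 40.2 against 229 ± 53.4 CPM and lipocalin 2 (Lcn2) at 490 ± 194 against 1032 ± 268 CPM. By contrast lactoferrin (Ltf) was at 53.6 ± 19.8 and 22.9 ± 29.1 CPM, higher in 8 of 8 tumours, and Cd177 at 155 ± 46.3 and 50.8 ± 35.7 CPM, higher in 7 of 8. Of the oxidase subunit genes, Ncf1 was higher in 8 of 8 tumours (0.74 ± 0.33) and the catalytic Cybb was at 0.02 ± 1.04. Of 10 interferon response genes 0 were higher or lower in 8 of 8 tumours.

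Of 26 immediate early and dissociation genes 11 were higher and 2 lower in 8 of 8 tumours, with a median of 0.50. The list sum was 44407 to 54849 CPM in activated and 34522 to 47107 CPM in other neutrophils. Enzyme digestion at 37 °C can switch on such genes, and its part in the activated pattern was not tested. Members of the list moved unlike each other: Egr1 (1.54 ± 0.63) and Jun (1.28 ± 0.38) were higher, Fos (-0.11 ± 0.24) and Dusp1 (-0.15 ± 0.23) were level, and Jund (-0.41 ± 0.22) and Atf3 (-0.18 ± 0.18) were lower in 8 of 8. The heat shock gene Hspa1a was at 1206 ± 1252 against 251 ± 177 CPM, with a spread between tumours larger than its mean, and shares reads with its copy Hspa1b. Of 10 iron, oxidant and stress genes 4 were higher in 8 of 8, among them ferritin heavy chain (Fth1, 24555 ± 4581 against 19858 ± 2238 CPM) and the chaperone Hspa5 (557 ± 37.4 against 389 ± 47.4 CPM).

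Activated cells differed among themselves in calprotectin. The share of UMIs from S100a8 and S100a9 had a median of 4.23% and ran from 0.254% at the 5th to 17.6% at the 95th percentile, against a median of 9.63% in other neutrophils. The 256 cells with the highest share within their tumours were set beside the 256 with the lowest, over 1546 genes of at least 100 CPM. Of these 47 (3.04%) were higher and 35 (2.26%) lower in the high-calprotectin cells of 8 of 8 tumours, a description of cells sorted by their own transcripts. Lcn2 was at 1233 against 151 CPM and Mcemp1, a myeloid membrane protein gene, at 671 against 204 CPM, whereas Tnf was at 520 against 927 CPM, Traf1 at 80.2 against 298 CPM and the interferon-induced gene Isg15 at 315 against 595 CPM. Ccrl2 (4992 against 4746 CPM) and Cxcl2 (32755 against 33132 CPM) were about equal, but not all marker genes were. G0s2, also a gate gene, was at 5690 against 2979 CPM and higher in 8 of 8 tumours. Il23a was at 347 against 597 CPM and lower in 7 of 8. Il1b, at 31395 against 27872 CPM, was higher in 7 of 8, and Il1a, at 1247 against 1393 CPM, was lower in 5 of 8. Retnlg was at 972 against 239 CPM and higher in 7 of 8. Cd74, a macrophage and B cell gene, was at 155 against 463 CPM, and the part of other cells' RNA in the low-calprotectin cells was not tested. Median depth was 1976 and 1686 UMIs.

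The antibody counts gave a readout that the rule did not use. Each cell's count of its own tumour's hashtag reflects bound CD45 and MHC class I antibody. Median counts of activated against other neutrophils were 659 and 502 in Con 1-1, 1216 and 999 in Con 1-2, 898 and 770 in Con 2-1, and 1417 and 1214 in Con 2-2. They were 586 and 550 in mA1 1-1, 1198 and 1038 in mA1 1-2, 1149 and 924 in mA1 2-1, and 1760 and 1623 in mA1 2-2. Activated cells had more in 8 of 8 tumours, by 1.17-fold on average and by 1.07- to 1.31-fold singly (mean log10 difference 0.07 ± 0.03, SD, n = 8; exact sign-flip permutation test, two-sided p = 0.00781, the smallest that 8 tumours can give). Among cells of 1000 to 3000 UMIs, where depth differs less, the log10 difference was 0.06. Of 7 MHC class I genes none was higher in 8 of 8 tumours. B2m was at 1413 against 1291 CPM, and H2-D1 was lower in 8 of 8 tumours at 1403 against 1999 CPM. Over the 4 libraries, with both hashtags summed, the difference was 0.09 with p = 0.125 in the same exact test, the smallest p that 4 libraries allow.

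**Figure D4:**
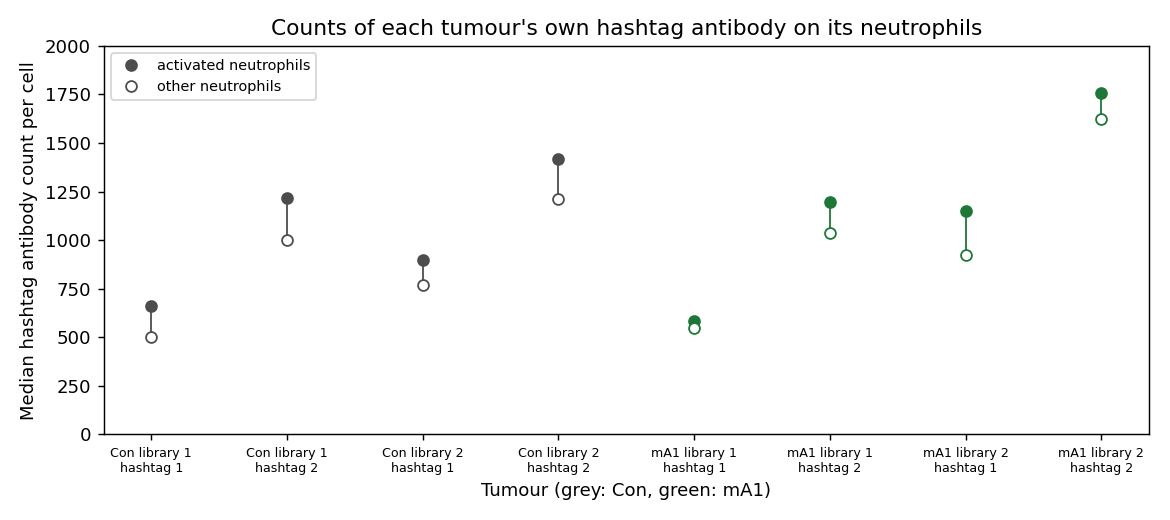
Median count per cell of the tumour's own hashtag antibody on activated (filled) and other (open) neutrophils of 8 tumours, Con in grey and mA1 in green, on a linear axis from 0. The filled point lies above the open one in 8 of 8 tumours, closest in mA1 1-1 (586 and 550) and furthest by ratio in Con 1-1 (659 and 502).

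The design asked whether Malat1 activation in tumour cells alters the tumour's surroundings, and the first comparison was of the share of neutrophils that were activated. It was 33.3% (74 of 222 cells), 43.0% (182 of 423), 30.2% (73 of 242) and 28.6% (26 of 91) in Con 1-1, Con 1-2, Con 2-1 and Con 2-2. In the mA1 tumours in the same order it was 30.1% (84 of 279), 46.5% (224 of 482), 46.1% (65 of 141) and 51.0% (52 of 102). Thus 3 mA1 tumours lay above the highest Con tumour, and mA1 1-1 lay among the Con tumours. The means were 33.8% ± 6.48 and 43.4% ± 9.14 (SD, n = 4 each), a difference of 9.64 percentage points that did not pass the exact two-sided permutation test over 70 arrangements (p = 0.143, adjusted over 2 shares 0.286, smallest possible 0.0286). The 95% Wilson interval, which covers counting error only, ended at 35.7% for mA1 1-1 and began at 42.1% for mA1 1-2 of the same library.

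The size of this difference turned on single libraries, although it kept its sign. Without Con library 2, the one with Xist, it was 5.24 points, and without mA1 library 2 it was 4.52 points (exact permutation p = 0.533 and 0.667). Without mA1 library 1 it was 14.8 points (exact permutation p = 0.0667, the smallest possible with a library left out). Deeper cells more easily reach 2 UMIs, so cells were also thinned to a common depth. At 500 UMIs per cell the shares were 25.7% and 32.3% (exact permutation p = 0.257), and at 1000 UMIs, with 129 Con and 92 mA1 cells left out, 33.6% and 40.2% (p = 0.229). All gate neutrophils were 8.26% ± 2.63 of Con and 9.22% ± 2.48 of mA1 cells (SD, n = 4 each; exact permutation p = 0.657).

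**Figure D5:**
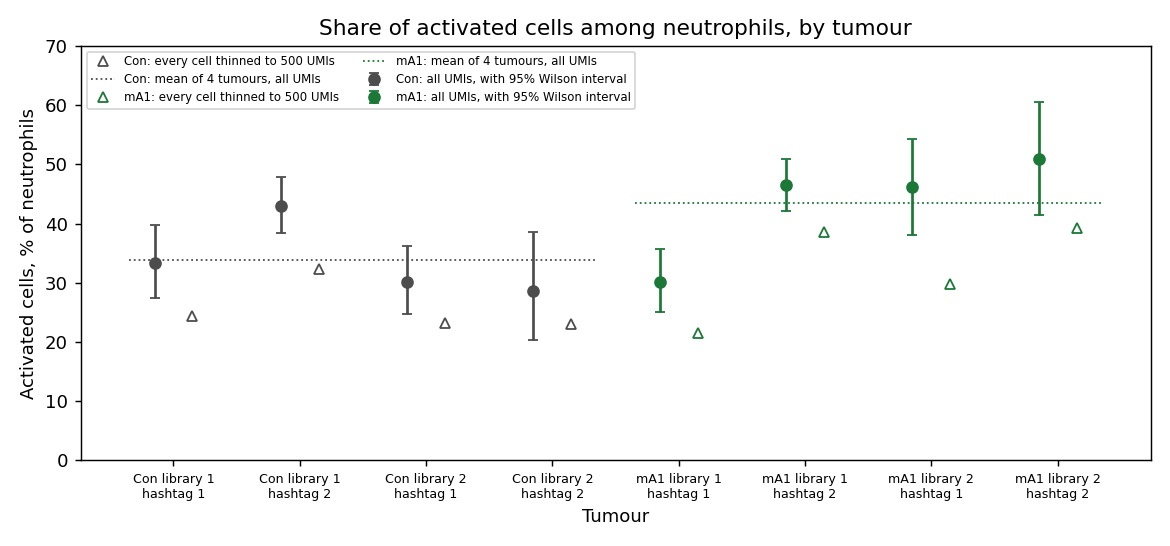
Share of activated cells among the gate neutrophils of each tumour with all UMIs (filled points, 95% Wilson intervals) and with every cell thinned to 500 UMIs (open triangles). Dotted lines are the means of 4 tumours, 33.8% for Con and 43.4% for mA1, and mA1 1-1 at 30.1% lies among the Con tumours.

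Within activated neutrophils no gene passed the test between mA1 and Con tumours. In edgeR's quasi-likelihood test on summed UMIs of 8 tumours, 0 of 2361 genes (0%) had a Benjamini-Hochberg adjusted p under 0.05, 35 (1.48%) had an unadjusted p under 0.05, and the groups of 4 tumours did not overlap for 28 (1.19%). DESeq2 and limma also called 0, with 24 and 25 genes at an unadjusted p under 0.05. Over the 759 cells within both limits, edgeR called 0 of 1667 genes, with 57 (3.42%) at an unadjusted p under 0.05. The median standard error of a log2 fold change over all activated cells was 0.37, so changes of that size were not detectable at this depth. Much larger ones could be missed too: Ifi30, at 1.35 ± 0.45 (standard error), had an edgeR adjusted p of 0.999. The test of a different response in activated and other neutrophils called 0 of 3317 genes, with 47 (1.42%) at an unadjusted p under 0.05, and other neutrophils alone gave 0 of 3407 with 96 (2.82%).

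The defining genes had log2 fold changes, mA1 over Con, of -0.02 ± 0.30 for Ccrl2, -0.34 ± 0.33 for Il1a and 0.69 ± 0.49 for Il23a (standard errors; edgeR adjusted p = 0.999 for each). Cxcl2 was at -0.13 ± 0.34, Il1b at 0.11 ± 0.36, Retnlg at 0.04 ± 0.46 and S100a8 at -0.34 ± 0.36, none past the test. Within both cell limits the values were -0.04 ± 0.18 for Ccrl2, -0.56 ± 0.27 for Il1a, 1.00 ± 0.48 for Il23a, -0.11 ± 0.17 for Cxcl2, 0.13 ± 0.19 for Il1b, -0.29 ± 0.39 for Retnlg and -0.49 ± 0.19 for S100a8 (edgeR adjusted p = 1.00 for each). With these standard errors the values do not show that the levels are alike. Ccrl2, Il1a, Il23a, Retnlg and S100a8 were also used to choose the cells in both groups. That choice limits the levels of those genes, so their fold changes and p-values are a description only. Malat1 itself, abundant in these untargeted cells, was at 32906, 34434, 48063 and 38233 CPM in the Con tumours and 31326, 30573, 45888 and 40126 CPM in the mA1 tumours. Its log2 fold change was 0.04 ± 0.38, and -0.13 ± 0.19 within both limits. In epithelial marker cells (at least 3 of 5 markers and 5000 UMIs) Malat1 made up 3.60% and 2.23% of UMIs in Con libraries 1 and 2. In mA1 libraries 1 and 2 the shares were 2.42% and 3.74%, so the groups overlapped, and the difference was not tested.

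The genes of smallest p, none of which passed, were Ifi30, Clec12a, Fabp5, Ltb and Cyth4 with higher and Clu, Igha, Cxcl3, Igkc and Frrs1 with lower values in mA1 tumours. The log2 fold change of Fabp5, a fatty acid binding protein gene, was 1.11 ± 0.42 and 0.30 ± 0.29 within both limits, where Ifi30, Clu and Frrs1 did not pass the low-count filter. Clu, the secreted chaperone clusterin, was at 952, 56.1, 81.7 and 136 CPM of summed UMIs in the Con tumours and at 75.3, 27.5, 14.8 and 7.93 CPM in the mA1 tumours, a log2 fold change of -3.58 ± 0.95 (SE; edgeR adjusted p = 0.999). Without Con 1-1 it was -1.47. The high value is that of Con 1-1, which holds the 87581-UMI barcode, and the other values of the groups overlap. In other neutrophils within both cell limits Clu was the 1 gene of 2421 (0.0413%) called, at 109 to 175 CPM in Con and 23.7 to 44.4 CPM in mA1 tumours (-2.02 ± 0.28, edgeR adjusted p = 0.000398). The groups did not overlap, as for 91 of those 2421 genes (3.76%). Without those limits it was at 1.82 ± 1.68 there and was not called. This alternative was chosen after seeing the data.

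Igha and Igkc, antibody chains of plasma cells, had log2 fold changes of -1.04 ± 0.35 and -1.14 ± 0.43. Jchain, the joining chain of secreted antibodies, was at -0.80 ± 0.43, and the part of plasma cell RNA in these values was not tested. Cxcl3, a further Cxcr2 ligand, rested on Con 2-1 at 1002 CPM of summed UMIs (-2.48 ± 0.85, and -1.03 without that tumour). Ltb, encoding lymphotoxin beta, was at 102, 242, 251 and 84.9 CPM in Con and 512, 341, 212 and 428 CPM in mA1 tumours (0.98 ± 0.38). Within both limits the smallest p belonged to Dusp2, at 626, 793, 711 and 529 CPM in Con and 1160, 1243, 1001 and 1553 CPM in mA1 tumours (0.80 ± 0.20, edgeR adjusted p = 0.695). Its groups did not overlap, as for 38 of the 1667 genes (2.28%).

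No pathway list had a member that passed the test in activated cells. The median log2 fold change over all tested genes was -0.03, and 0.00 within both cell limits. The 7 interferon genes tested had a median of 0.54 (0.43 within both limits), with 6 of 7 positive. All 23 genes of that list in the data, tested or not, summed to 1083 to 1635 CPM in Con tumours. In mA1 tumours their sum was 1530 to 3653 CPM, so the groups overlap. The 4 CC chemokine genes had a median of -0.57 with and without the limits and 0 of 4 positive, among them Ccl3 at -0.75 ± 0.37 and Ccl4 at -1.05 ± 0.51. The median of the 13 hypoxia and glycolysis genes was -0.28 (2 of 13 positive) and -0.12 within the limits, and the median of the 18 TNF and NF-kB genes 0.07 (13 of 18) and 0.14. The 12 mature and granule genes had a median of -0.08 (5 of 12), or -0.03 over the 11 tested within the limits, and the 19 tumour neutrophil genes -0.04 (9 of 19) and -0.12.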

How the data were processed

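The deposited files hold UMI counts, 1 matrix of genes and hashtag antibodies per library, made by the authors with Cell Ranger 6.0.1 on mm10 per the submitters' processing notes. The cells and the gene lists were chosen with earlier results of these data known. Hashtags were called by a mixture of 2 Gaussians (scikit-learn 1.9.0) on log10 counts of cells with at least 10 counts, a limit set after a first fit failed in mA1 library 2. Levels are means of per-cell CPM per tumour. Genes named between states are the 20 highest and 12 lowest log2 ratios outside the rule at 50 CPM or more, with 1 sign in 8 tumours. Between mA1 and Con they are the called genes or, with fewer than 5 called, the 5 of smallest p in each direction. From each list, examples were also chosen after their values were seen. Counts were summed per tumour and tested with edgeR 4.0.16 (TMM scaling, low-count filter, two-sided, R 4.3.3), and the code was tested on simulated data. Alternatives used DESeq2 1.42.0 and limma 3.58.1. Shares and hashtag counts used exact permutation tests. Doublets were treated by leaving out cells with both hashtags from tumours. Scrublet (scanpy 1.11.5) called 3 activated cells and 0% of Con library 2, where it did not work, so it served as an alternative only. UMI intervals cover counting error only.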

Additional observations from a re-analysis of the deposited data

Results flagged for a closer look

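Of 114 groups of 4 tumours examined for one value far from the other 3, 6 were set apart, and chance sets apart about 1 in 20. In activated cells of mA1 tumours these were Retnlg at 974 CPM in mA1 1-1 (the others 292 to 399), Csf1 at 394 CPM in mA1 2-1 (294 to 311), the unnamed transcript Gm43936 at 455 CPM in mA1 2-1 (75.1 to 116), and Gpr171, a G protein-coupled receptor gene, at 11.7 CPM in mA1 1-1 (88.0 to 96.0). In Con tumours they were Cxcl3 at 1030 CPM in Con 2-1 (the others at or below 192) and Clu at 952 CPM of summed UMIs in Con 1-1 (56.1 to 136). Tumour mA1 1-1, the highest in Retnlg, was also the mA1 tumour with the lowest activated share. Retnlg UMIs count against an activated call, so these values are not independent of each other, and what links them was not tested. In other neutrophils Retnlg was at 6013 CPM in mA1 1-1 and at 5792 to 6348 CPM in the other mA1 tumours.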

How the results depend on the processing

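The difference in activated share stayed positive under 21 alternatives, from 4.52 to 14.8 points, and none passed the threshold. With a library left out, or with the 4 libraries as samples, no p under the threshold was possible. Those settings therefore could not have passed. The difference in gate neutrophils among all cells ran from -1.20 to 3.11 points over left-out tumours and libraries and was negative without Con library 2 (-1.20) or mA1 library 1 (-1.02). The hashtag difference missed the threshold over 4 libraries (log10 0.0924, exact permutation p = 0.125), where no smaller p is possible. Leaving out tumours or libraries gave 0 to 2 called genes in activated, 0 to 2 in other neutrophils and 0 to 1 for the difference between states, by edgeR's adjusted p. The 2 genes called without Con library 1 were Xist and Ddx3y in both states. Without the low-count filter 16 genes were called in activated cells, 15 of them lower in mA1. Among these were the epithelial genes Krt23, Sdc1 and Ly6d. The 1 gene higher in mA1 was Plet1, an alveolar macrophage gene of the gate. Tumour Con 1-1 holds the 87581-UMI barcode with 943 UMIs of epithelial genes, and its part in these calls was not tested. The same setting called 1 gene (Hba-a1) for the difference between states. With both cell limits 1 gene (Clu) was called in other neutrophils. With library number as a replicate block the share difference was 9.64 points (exact permutation p = 0.167) and 0 genes were called in activated cells (29 at an unadjusted p under 0.05). Deviations of same-numbered libraries were only weakly and negatively correlated (r = -0.22 across 5056 genes, which are not independent), and a crossed block also called 0. Of 10 named genes, 217 alternative fold changes kept sign and call. These 10 genes were chosen for small p in the same data, and none was called in any of these settings. The kept signs are therefore no support for their fold changes. All 400 alternative log2 ratios of 40 genes between states kept their sign, and these untested ratios had no call to keep. Most of the 40 genes were chosen for having the same sign in every tumour, or had their direction fixed by the rule. For those genes, leaving out a tumour could not have changed the sign. Depth limits the low genes: tumour Con 2-2 holds 26 activated cells.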
